A study of Mus musculus with 6 samples.

Results

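Amino acid transporters of the solute carrier (SLC) families 1, 3, 6, 7, 36, 38 and 43 were followed in myeloid cells after the inducer of an Evi1 transgene had been taken away. The genes were those whose annotated symbol begins with Slc, 1 of these 7 family numbers, the letter a and a number, on a probe set (a group of probes to the same transcript) that names no other gene. This gave 63 of the 18193 genes measured, read by 125 probe sets. Of the 63 symbols 60 name a carrier or, for Slc3a1 and Slc3a2, a partner chain of carriers, and all 60 are counted as carriers below. The other symbols, Slc36a1os, Slc6a19os and Slc7a6os, name genes on the opposite strand. The rule names genes by symbol, and where several probe sets name a gene, the one brightest on average was read.

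Cells cannot make the essential amino acids, and dividing cells take them up with glutamine, serine, arginine and cystine through carriers of the plasma membrane. The SLC7 light chains of the LAT group work only when bound to a heavy chain of SLC3, which brings them to the membrane, and they exchange 1 amino acid for another. Carriers such as those of SLC38 and SLC1 use the sodium gradient to load the cell with glutamine and small neutral amino acids, which the exchangers then trade for leucine and other large ones. Not all members of these families carry amino acids. Within SLC6 are the transporters of serotonin, dopamine, noradrenaline, taurine, creatine and GABA, and Slc43a3 carries purine nucleobases.

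The cells were the myeloid clone C6, a clone of haematopoietic progenitor cells on the Rosa26rtTA C57BL/6J background. The background name and the vector name pRRL.TET.Evi1.IRES.EGFP denote the doxycycline-controlled transactivator and an Evi1 gene, codon-optimized and murine per the series description, that shares its transcript with the green fluorescent protein EGFP. Both groups carry the transgene and were grown in S3F11 medium whose added cytokines were murine SCF and human Flt3 ligand and interleukin 11, all at 50 ng/ml, and murine interleukin 3 at 20 ng/ml. The doxycycline group (3 arrays) was kept under doxycycline at 1 µg/ml, and the withdrawal group (3 arrays) was taken 48 h after the drug had been removed. Only 1 clone was studied, removal of the drug and loss of Evi1 cannot be told apart, and no label names the replicates as independent cultures. The p-values therefore reflect the variation among 6 arrays alone, and that variation may be technical.

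Values are log2 expression as deposited, differences are withdrawal minus doxycycline on that scale with the standard error (SE) from limma, and "rose" and "fell" are used of genes with a limma adjusted p below 0.05. Of all 18193 genes, 218 rose and 286 fell. Array medians ran from 5.22 to 5.27. On the second principal component withdrawal replicate 3 and doxycycline replicate 1 stood apart from the other 4 arrays. The 3 probe sets named Mecom, the gene of Evi1, differed by -0.10, 0.13 and -0.04, with limma adjusted p from 0.615 to 0.881, and since the transgene is codon-optimized they do not check the labels. Of the defining markers, Ptprc, Coro1a and the other 4 of 6 haematopoietic genes were high and did not pass, while the highest mean among the 4 fibroblast genes was 5.75. Other marker lists moved with the groups. Of 4 monocyte markers Csf1r, Mpeg1 and Cd68 fell (mean level of the list 9.49 to 9.50 under doxycycline, 9.13 to 9.21 after withdrawal), and of 4 red cell markers Hbb-y and Rhag fell (7.03 to 7.09, then 5.97 to 6.09). Of 5 myeloid progenitor markers Elane rose and Cd34 fell, and of 5 neutrophil markers Camp rose. The part of these cell types in the values of the carriers was not tested. Because levels of different probe sets depend on their probes, no carrier's level is ranked against another's.

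After withdrawal 3 of the 63 genes rose and 3 fell. The falls were those of Slc6a20a, the sodium-coupled transporter of proline and other imino acids, Slc1a4, an exchanger of alanine, serine and cysteine (ASCT1), and Slc38a2, the sodium-coupled carrier SNAT2 that loads cells with alanine, serine and glutamine. The rises were those of Slc6a4, the serotonin transporter, Slc43a3, the carrier of purine nucleobases, and Slc36a4, a carrier of proline and tryptophan (PAT4). Across all genes 1.2% were called higher and 1.57% lower, 2.77% in either direction, against 9.52% of the 63. Among the other 284 measured Slc genes 4 rose and 10 fell, which is 4.93%. The median difference of the 63 was 0.02 and that of all genes 0.01, with median absolute differences of 0.10 and 0.09. Among the 34 carriers above the median level of all probe sets 5 passed (14.7%), against 4.23% of all genes above that level.

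**Figure D1:**
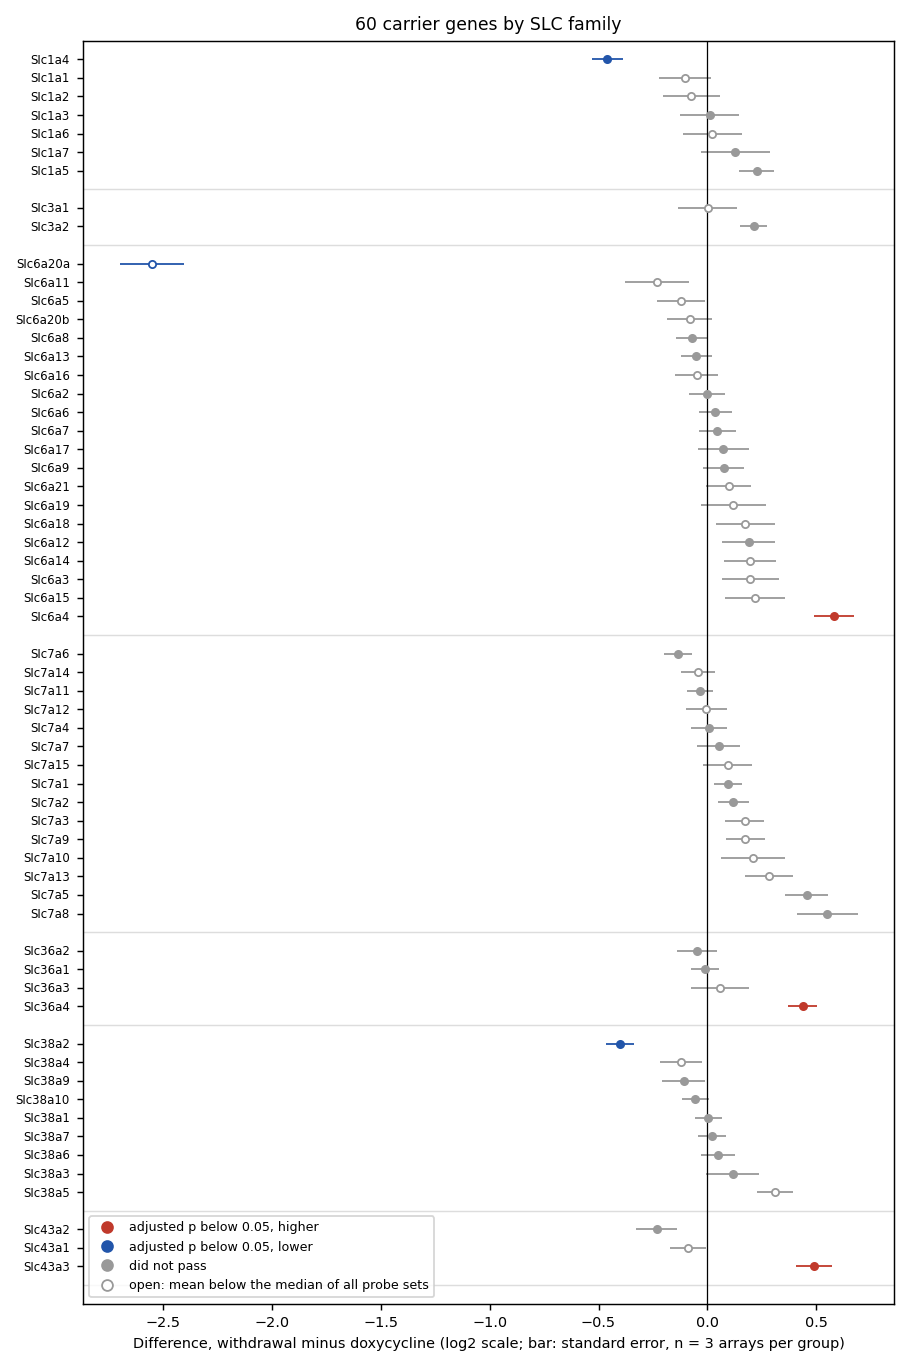
Difference between withdrawal and doxycycline for the 60 carrier genes, grouped by family, with the difference on the log2 scale on the x axis, bars for the SE (n = 3 arrays per group) and open points for genes whose mean lay below the median of all probe sets. Slc6a20a at -2.55 lies far from the other 59 carriers, which ran from -0.46 to 0.58.

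Slc6a20a had values of 5.82, 6.21 and 6.02 under doxycycline and of 3.76, 3.25 and 3.39 after withdrawal. All 3 withdrawal values lay more than 2 units below the lowest doxycycline value. The difference was -2.55 ± 0.15 (SE, n = 3 per group, limma adjusted p = 0.000423), which made it the third largest fall among the 18193 genes. The gene was close to the floor of the arrays after withdrawal, so the size is uncertain and no exact fold is given. This call was kept when any 1 of the 6 arrays was left out, with differences from -2.69 to -2.44 and adjusted p up to 0.00619, and without both arrays that stood apart (adjusted p = 0.0260). Slc6a20a is read by 1 probe set, so no other probe set checks it.

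Its paralogue Slc6a20b, the next measured gene on chromosome 9, was low in both groups, with means of 3.93 under doxycycline and 3.85 after withdrawal and overlapping groups (difference -0.08 ± 0.10, limma adjusted p = 0.798). The measured genes flanking this pair, Sacm1l (-0.12 ± 0.07), Lztfl1 (-0.31 ± 0.07) and Ccr9 (-0.06 ± 0.10), did not pass either. Slc6a20b was near the floor in both groups, so the size of a difference between the paralogues is not given. The promoter windows of the pair are shown because the genes are neighbours and gave different differences. RefSeq windows of mouse build GRCm38.p6 run from 250 bases before to 50 after the annotated start, and capitals mark matches to the motifs searched, of which these 2 windows hold none. Slc6a20a is at chr9:123678783-123679082 and Slc6a20b at chr9:123632489-123632788, both on the minus strand.
Slc6a20a: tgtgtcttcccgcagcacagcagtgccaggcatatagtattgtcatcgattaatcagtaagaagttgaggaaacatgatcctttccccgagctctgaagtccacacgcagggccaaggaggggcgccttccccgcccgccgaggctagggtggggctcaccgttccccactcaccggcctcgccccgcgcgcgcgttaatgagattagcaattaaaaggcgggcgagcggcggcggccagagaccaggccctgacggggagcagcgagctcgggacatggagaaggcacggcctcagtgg
Slc6a20b: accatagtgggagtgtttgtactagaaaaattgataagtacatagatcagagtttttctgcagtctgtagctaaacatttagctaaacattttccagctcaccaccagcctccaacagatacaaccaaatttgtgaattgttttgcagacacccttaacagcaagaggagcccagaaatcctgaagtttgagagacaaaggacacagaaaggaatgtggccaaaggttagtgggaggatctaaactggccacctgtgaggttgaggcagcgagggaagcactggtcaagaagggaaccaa

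**Figure D2:**
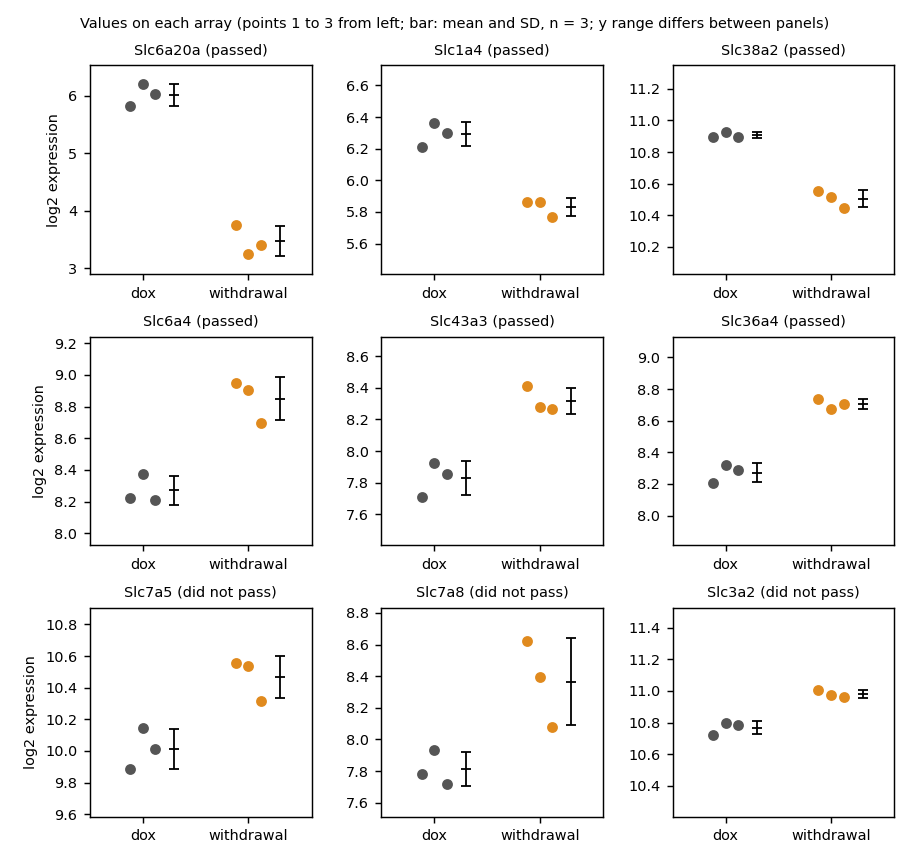
Log2 expression on each array for the 6 genes that passed and for Slc7a5, Slc7a8 and Slc3a2, which did not, with the doxycycline arrays in grey, the withdrawal arrays in orange and bars for the mean and SD (n = 3). The y range differs between panels. The groups are separate in all 9 panels, and withdrawal replicate 3 is the withdrawal value nearest to the doxycycline group for Slc6a4, Slc43a3, Slc7a5, Slc7a8 and Slc3a2.

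In SLC1, 7 carriers were measured, of which 1 fell, none rose and 6 did not pass. Slc1a4 was at 6.21, 6.36 and 6.30 under doxycycline and at 5.86, 5.86 and 5.77 after withdrawal. The groups did not overlap, and the level was 1.37-fold lower (difference -0.46 ± 0.07, limma adjusted p = 0.0241). Its other 2 probe sets were lower by less, at -0.10 and -0.23, and did not pass, and the mean of its 3 probe sets differed by -0.27 (limma adjusted p = 0.211), so the call rests on the brightest probe set. Slc1a5, the glutamine carrier ASCT2, was at 8.34, 8.56 and 8.52 under doxycycline and at 8.75, 8.72 and 8.63 after withdrawal. These groups did not overlap, and the difference of 0.23 ± 0.08 did not pass (limma adjusted p = 0.257). The other probe set of Slc1a5 was on the same side of 0 as Slc1a4, at -0.07, and the mean of the 2 differed by 0.08 (limma adjusted p = 0.733). On their brightest probe sets the changes of the 2 ASCT genes differed by -0.69 (exact permutation test over the arrays, two-sided p = 0.1, the smallest that 3 against 3 arrays allow, and 0.1 adjusted over the 7 pairs compared in this way, which were chosen after their values were seen). The gap is smaller on the means of their probe sets, -0.27 against 0.08. The 5 glutamate transporters Slc1a1, Slc1a2, Slc1a3, Slc1a6 and Slc1a7, best known from neurons, glia and retina, differed by -0.10 to 0.13, and their groups overlapped.

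In SLC38, 9 carriers were measured, of which 1 fell, none rose and 8 did not pass. Slc38a2 was at 10.90, 10.93 and 10.89 under doxycycline and at 10.55, 10.52 and 10.45 after withdrawal. Every withdrawal array lay below every doxycycline array, and the level was 1.32-fold lower (difference -0.40 ± 0.06, limma adjusted p = 0.0275). Both other probe sets of Slc38a2 were lower too, at -0.22 and -0.28, without passing, and the mean of the 3 passed at -0.30 (limma adjusted p = 0.0302). Slc38a1, its neighbour on chromosome 15 and the related carrier SNAT1, was at 10.61, 10.66 and 10.64 under doxycycline and at 10.67, 10.63 and 10.63 after withdrawal. Its difference was 0.003 with a 95% interval from -0.14 to 0.15, and the 2 neighbours differed in their change by -0.40 (exact permutation test, two-sided p = 0.1, adjusted p = 0.1 over 7 pairs). Slc38a4, the neighbour on the other side of Slc38a2, was near the floor of the arrays at 3.04 and 2.92.

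None of the remaining members of SLC38 passed. Slc38a10, an orphan relative, was at 10.32, 10.26 and 10.26 under doxycycline and at 10.25, 10.19 and 10.24 after withdrawal, with groups just apart and a difference of -0.06 ± 0.06. Its next brightest probe set had groups apart in the other direction, at 0.09 ± 0.06, and only 1 of its 6 other probe sets was below 0. Slc38a9, the lysosomal arginine sensor that acts on mTORC1, differed by -0.11 ± 0.10 and Slc38a7, a lysosomal glutamine carrier, by 0.02 ± 0.06. Of the 6 other probe sets of Slc38a9 2 were below 0, and the mean of all 7 differed by -0.03 (limma adjusted p = 0.817). Slc38a5, a carrier of glutamine and glycine (SNAT5), had values from 3.31 to 3.52 under doxycycline and from 3.63 to 3.76 after withdrawal. Its groups were separate, but the difference of 0.31 ± 0.08 did not pass (limma adjusted p = 0.132) and lay near the floor. Slc38a3 and Slc38a6 differed by 0.12 and 0.05, and their groups overlapped.

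The promoters of Slc1a4 and Slc38a2 are shown because both genes, like Slc6a20a, fell. Among the motifs searched was that of ATF4, the transcription factor of the amino acid starvation response. The motif searched for ATF4 was the C/EBP-ATF site TGATGNAA, on both strands, with no overlap with the other motifs. The window of Slc1a4 (chr11:20332664-20332963, minus strand) holds 1 match, in capitals, and that of Slc38a2 (chr15:96699679-96699978, minus strand) holds none. Sites outside the windows, such as in introns, were not searched.
Slc1a4: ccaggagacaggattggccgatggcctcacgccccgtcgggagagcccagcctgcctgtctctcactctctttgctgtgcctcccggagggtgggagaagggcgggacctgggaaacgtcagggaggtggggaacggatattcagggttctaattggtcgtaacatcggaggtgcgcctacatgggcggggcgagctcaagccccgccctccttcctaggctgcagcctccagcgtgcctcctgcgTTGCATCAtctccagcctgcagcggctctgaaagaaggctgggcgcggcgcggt
Slc38a2: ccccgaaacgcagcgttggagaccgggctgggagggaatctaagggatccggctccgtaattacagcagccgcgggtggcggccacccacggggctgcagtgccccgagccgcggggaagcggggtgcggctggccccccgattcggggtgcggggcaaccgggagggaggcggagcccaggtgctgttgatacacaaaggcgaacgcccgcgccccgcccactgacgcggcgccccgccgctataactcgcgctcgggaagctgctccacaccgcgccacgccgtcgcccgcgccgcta

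Promoter windows were found for 46 of the 63 genes, among them 5 of the 6 that passed, and none was held for Slc43a3. The C/EBP-ATF site was present for 4 of the 46 genes (8.70%), against 4.51% of the 27025 genes in the table. Besides Slc1a4 these were Slc6a21, Slc7a11 and Slc7a7, which did not pass. The E-box CACGTG, a site of MYC and related factors, was present for 9 of the 46 (19.6%) against 8.09% of all, and none of these 9 genes passed. The Evi1 motifs GACAAGATA, of its first zinc finger domain, and GAAGATGAG, of its second, were present for none of the 46, against 0.141% and 0.459% of all genes. The site of GATA factors, searched as AGATAAG and able to overlap the first Evi1 motif, was present for Slc38a4 and Slc7a9 (4.35% against 3.50%). These counts describe letters in short windows only.

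In SLC3, neither heavy chain passed. Slc3a2, the heavy chain CD98 that carries the LAT light chains to the membrane, was at 10.72, 10.80 and 10.78 under doxycycline and at 11.01, 10.97 and 10.96 after withdrawal. The groups did not overlap, with a difference of 0.21 ± 0.06 on the 1 probe set of Slc3a2 (limma adjusted p = 0.175). With trend and robust options of eBayes this difference passed (adjusted p = 0.0111), and it also did so when only probe sets above the median level were tested (adjusted p = 0.0465). Slc3a1, the heavy chain rBAT of kidney and intestine, was at 4.13, 3.81 and 4.18 under doxycycline and at 4.01, 3.86 and 4.27 after withdrawal, and the groups overlapped.

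In SLC7, none of the 15 carriers passed, although 8 had separate groups. Of the 63 genes, 12 had all withdrawal arrays above the doxycycline arrays and 7 all below, against 12.4% and 12.2% of all genes and 24.7% in either direction. The differences with the largest size were those of 2 partners of Slc3a2. Slc7a5, the leucine and large neutral amino acid exchanger LAT1, was at 9.89, 10.14 and 10.01 under doxycycline and at 10.55, 10.54 and 10.32 after withdrawal. All withdrawal values were above all doxycycline values, and the difference of 0.45 ± 0.10 missed the threshold (limma adjusted p = 0.0700). It passed with array weights (adjusted p = 0.0238), with trend and robust options (adjusted p = 0.00401) and above the median level (adjusted p = 0.0281). In the fit that averaged the probe sets of each gene its adjusted p was 0.0380. Slc7a5 is read by 1 probe set, so that fit used the same values and difference. It differed only in its prior and in adjusting over genes instead of probe sets. Over all alternatives the adjusted p of Slc7a5 ran up to 0.239. Slc7a8, the exchanger LAT2, was at 7.78, 7.94 and 7.72 under doxycycline and at 8.62, 8.39 and 8.08 after withdrawal. The withdrawal arrays were spread widely but lay above the doxycycline arrays, and the difference of 0.55 ± 0.14, on 1 probe set, did not pass (limma adjusted p = 0.111). With all 6 arrays it passed with trend and robust options (adjusted p = 0.0177) and with array weights (adjusted p = 0.0313). It also passed without withdrawal replicate 3, at 0.69 (adjusted p = 0.0378), and over all alternatives its adjusted p ran up to 0.312.

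The other partners of Slc3a2 gave no such difference. Slc7a6, an exchanger of cationic for neutral amino acids, differed by -0.14 ± 0.06 and its second probe set by -0.21, and neither passed. Slc7a7, its relative of macrophages and epithelia, differed by 0.05 ± 0.10 and the small neutral exchanger Slc7a10 by 0.21 ± 0.15. Slc7a11, the cystine and glutamate exchanger xCT that feeds glutathione synthesis, was at 6.92, 6.91 and 6.90 under doxycycline and at 6.87, 6.89 and 6.88 after withdrawal. The groups were apart by a narrow margin, and this difference of -0.03 had a 95% interval from -0.17 to 0.11. Its dimmer second probe set differed by -0.36 ± 0.21 with overlapping groups, and the mean of both by -0.20 (limma adjusted p = 0.441). Slc7a5 differed from Slc3a2 in its change by 0.24, and Slc7a8 from Slc7a6 by 0.69 (exact permutation test, two-sided p = 0.1 for each, adjusted p = 0.1 over 7 pairs).

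Among the cationic amino acid transporters of SLC7, Slc7a1, which brings arginine and lysine into most dividing cells, was at 10.17, 10.21 and 10.15 under doxycycline and at 10.23, 10.27 and 10.31 after withdrawal. The groups were separate by a small margin, with a difference of 0.09 ± 0.06 (limma adjusted p = 0.575). Its other 2 probe sets had groups apart in opposite directions, at 0.17 ± 0.06 and, on the dimmer, at -0.06 ± 0.06, and neither passed. Slc7a2, the arginine transporter that macrophages induce, differed by 0.12 ± 0.07, Slc7a3 by 0.17 ± 0.09 and the relatives Slc7a4 and Slc7a14 by 0.01 and -0.04. Slc7a9, the light chain of Slc3a1, was low at 3.73 and 3.91. Slc7a12, Slc7a13 and Slc7a15 were also below the median of all probe sets, with differences from -0.005 to 0.28.

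In SLC6 as a whole, 20 carriers were measured, of which 1 rose, 1 fell and 18 did not pass. Slc6a4, the serotonin transporter, was at 8.22, 8.37 and 8.21 under doxycycline and at 8.95, 8.90 and 8.70 after withdrawal. The groups did not overlap, and the level was 1.5-fold higher (difference 0.58 ± 0.09, limma adjusted p = 0.0244). Only 1 probe set reads this gene. Slc6a4 is known from platelets, mast cells and basophils. Of 4 mast cell and basophil markers, Mcpt8, Ms4a2 and Hdc rose and Cpa3 did not pass, and the mean log2 level of the 4 went from between 11.4 and 11.5 to between 12.2 and 12.3 over the arrays. Of 5 megakaryocyte markers Selp, Ppbp, Pf4 and Gp9 fell and Itga2b did not pass, with a mean level from 8.20 to 8.37 under doxycycline and from 7.01 to 7.14 after withdrawal. The part of these cell types in the value of Slc6a4 was not tested, and in such bulk samples a change in the share of cells of a type and a change in RNA per cell cannot be told apart.

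The 2 other monoamine transporters, Slc6a2 for noradrenaline and Slc6a3 for dopamine, differed by -0.002 and 0.20, and their groups overlapped. Slc6a6, the taurine transporter, was at 11.00, 11.07 and 11.05 under doxycycline and at 11.14, 11.13 and 10.96 after withdrawal, with overlapping groups and a difference of 0.04 ± 0.08. Slc6a13, the GABA and taurine transporter GAT2 of liver, kidney and meninges, was at 9.60, 9.64 and 9.78 under doxycycline and at 9.61, 9.61 and 9.64 after withdrawal. This probe set was far above the floor of the arrays in both groups, and the groups overlapped. Its chromosomal neighbour Slc6a12, the betaine transporter, was at 6.17, 6.18 and 6.23 under doxycycline and at 6.65, 6.17 and 6.32 after withdrawal, so that only withdrawal replicate 1 stood out. The creatine transporter Slc6a8 (-0.07 ± 0.07) and the glycine transporter Slc6a9 (0.08 ± 0.09) did not pass. The neutral amino acid transporters of epithelia and brain, Slc6a14, Slc6a15, Slc6a17, Slc6a18 and Slc6a19, differed by 0.07 to 0.22 with overlapping groups, and so did Slc6a5, Slc6a7, Slc6a11, Slc6a16 and Slc6a21, by -0.23 to 0.10.

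In SLC36, the proton-coupled family, 1 of 4 carriers rose. Slc36a4 was at 8.20, 8.32 and 8.29 under doxycycline and at 8.74, 8.68 and 8.71 after withdrawal. The groups lay well apart, and the level was 1.35-fold higher (difference 0.44 ± 0.07, limma adjusted p = 0.0217). It is read by 1 probe set. Slc36a1, the carrier PAT1 that moves small amino acids out of lysosomes, was at 8.51, 8.50 and 8.52 under doxycycline and at 8.56, 8.50 and 8.44 after withdrawal, with a 95% interval of the difference from -0.16 to 0.14. The changes of the 2 carriers differed by 0.45 (exact permutation test, two-sided p = 0.1, adjusted p = 0.1 over 7 pairs). Slc36a2 and Slc36a3, which lie on chromosome 11 like Slc36a1, differed by -0.05 and 0.06.

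In SLC43, 1 of 3 carriers rose. Slc43a3 was at 7.71, 7.92 and 7.85 under doxycycline and at 8.41, 8.28 and 8.26 after withdrawal. All withdrawal arrays were above all doxycycline arrays, and the level was 1.40-fold higher (difference 0.49 ± 0.08, limma adjusted p = 0.0320). This gene, too, is read by 1 probe set. Slc43a2, the large neutral amino acid facilitator LAT4, was at 9.42, 9.68 and 9.60 under doxycycline and at 9.38, 9.41 and 9.21 after withdrawal. Its groups were separate in the other direction, and the difference of -0.23 ± 0.09 did not pass (limma adjusted p = 0.320). The other 2 probe sets of Slc43a2 differed by -0.15 and -0.03 with overlapping groups, and the mean of the 3 by -0.14 (limma adjusted p = 0.596). The change of Slc43a3 exceeded that of the brightest probe set of Slc43a2 by 0.72 (exact permutation test, two-sided p = 0.1, adjusted p = 0.1 over 7 pairs). Slc43a1, the related facilitator LAT3 and a neighbour of Slc43a3 on chromosome 2, differed by -0.09 ± 0.08.

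The 2 measured genes on the other side of Slc43a3 are Prg2 and Prg3, which encode the major basic proteins of eosinophil granules. Both rose, by 0.44 and 0.74 (limma adjusted p = 0.0171 and 0.00425). Prg3 went from 9.75 ± 0.11 under doxycycline to 10.49 ± 0.02 after withdrawal (SD, n = 3 arrays). The eosinophil markers Epx and Siglecf rose as well, so that 4 of 4 on that list passed, and their mean level went from between 10.37 and 10.48 to between 11.04 and 11.12. The part of the eosinophil genes in the value of Slc43a3 was not tested. Counting the nearest 2 measured genes on each side of the 6 genes that passed, Prg2 and Prg3 were the only 2 of 24 neighbours that passed, and the median difference of the 24 was -0.01. Across all genes 2.77% passed.

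**Figure D3:**
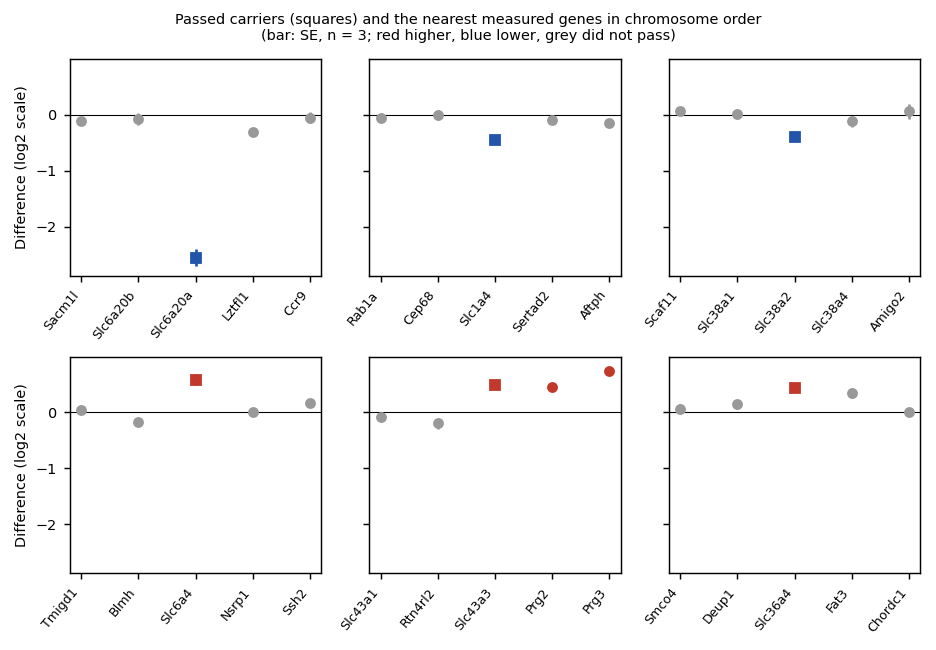
Differences on the log2 scale for the 6 genes that passed (squares) and the nearest 2 measured genes on each side in RefSeq chromosome order (circles), with bars for the SE (n = 3 arrays per group), red for higher, blue for lower and grey for genes that did not pass. Only beside Slc43a3 are there coloured neighbours, Prg2 at 0.44 and Prg3 at 0.74.

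Of the 3 opposite-strand symbols none passed. Slc36a1os and Slc6a19os, both non-coding, differed by -0.004 and 0.01. Slc7a6os, a protein-coding gene, differed by -0.05 ± 0.09 on its brightest probe set and by -0.42 on the other, without passing.

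The calls of the genes other than Slc6a20a were close to the threshold. Without any 1 of the 6 arrays the calls of Slc1a4, Slc38a2, Slc43a3 and Slc36a4 were lost, with adjusted p from 0.0544 to 0.128. Slc6a4 passed without withdrawal replicate 3 (adjusted p = 0.0212) and in none of the other 5 such fits, with adjusted p up to 0.119. Their differences moved little when an array was left out, from -0.50 to -0.42 for Slc1a4, from -0.42 to -0.37 for Slc38a2, from 0.53 to 0.66 for Slc6a4, from 0.43 to 0.54 for Slc43a3 and from 0.40 to 0.46 for Slc36a4. Without both arrays that stood apart, a choice made after seeing the data, only Slc6a20a of the 63 passed.

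**Figure D4:**
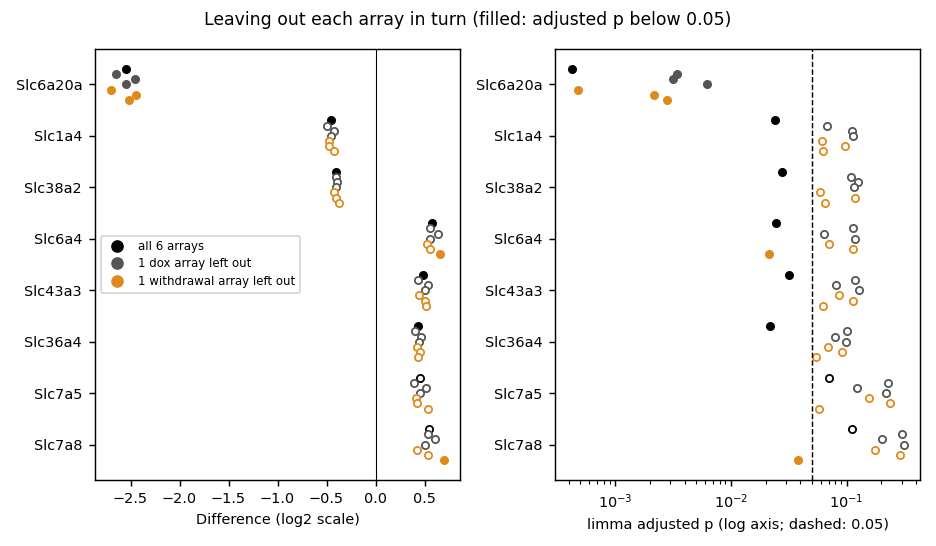
Difference (left, log2 scale) and limma adjusted p (right, log axis) for the 6 genes that passed and for Slc7a5 and Slc7a8, with all 6 arrays in black, without 1 doxycycline array in grey and without 1 withdrawal array in orange, filled where adjusted p was below 0.05. Slc6a20a stays filled throughout, while the only other filled points with an array left out are those of Slc6a4 and Slc7a8 without withdrawal replicate 3.

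Genes that act with these carriers were read from 7 lists. Beside each count from the main fit below, the share called was 2.77% of all genes and 4.23% of those above the median level. On the list of other amino acid and peptide carriers none of 19 measured genes passed and the median difference was -0.02. The nearest to the threshold was Slc16a10, a carrier of aromatic amino acids, at 0.33 ± 0.06 (limma adjusted p = 0.0514). None of 29 measured genes of amino acid sensing by mTORC1 passed, and the leucine sensor gene Sesn1 differed by -0.39 (adjusted p = 0.0616 in limma) and Castor2, a relative of the arginine sensor, by 0.43 (adjusted p = 0.0936 in limma). None of 6 genes of branched-chain amino acid use and none of 7 partners and regulators of transporters passed. When the probe sets of a gene were averaged, 2 genes of amino acid sensing passed, Sesn1 at -0.32 (limma adjusted p = 0.0203) and Mios at -0.27 (limma adjusted p = 0.0462). In that fit Myc, on the list of partners and regulators, passed as well, at -0.29 (limma adjusted p = 0.0277). More of all genes passed in the fit on averages than in the main fit, and its counts are given in the last section.

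Of 20 measured genes of the amino acid starvation response 1 rose and none fell. Atf5, a transcription factor induced in that response, was at 7.28, 7.52 and 7.49 under doxycycline and at 7.93, 7.92 and 7.89 after withdrawal (difference 0.48 ± 0.08, limma adjusted p = 0.0320). Leaving out any array ended this call. Atf4 itself differed by 0.25 ± 0.06 (limma adjusted p = 0.111), and the list median was -0.003.

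Of 11 measured genes on the list of cystine use and glutathione synthesis 1 rose and 2 fell. The list also holds genes outside both, Nqo1 among them. Nqo1, a quinone reductase driven by NRF2, was at 7.44, 7.38 and 7.37 under doxycycline and at 6.52, 6.20 and 6.29 after withdrawal (difference -1.06 ± 0.09, limma adjusted p = 0.00237). Gclm, the modifier subunit of the enzyme that starts glutathione synthesis, fell by 0.51 and Gclc, its catalytic subunit, rose by 0.39. The call of Gclc was lost without any 1 of the 6 arrays, while Gclm was kept in 2 of 6 and Nqo1 in 6 of 6 such fits. Of 13 measured genes of glutamine, glutamate and arginine use Arg1, which splits arginine, fell by 1.00 (limma adjusted p = 0.0193), and its call was kept in 2 of 6 such fits. The cystine carrier Slc7a11 and the arginine carriers Slc7a1 and Slc7a2, given above, did not pass.

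**Figure D5:**
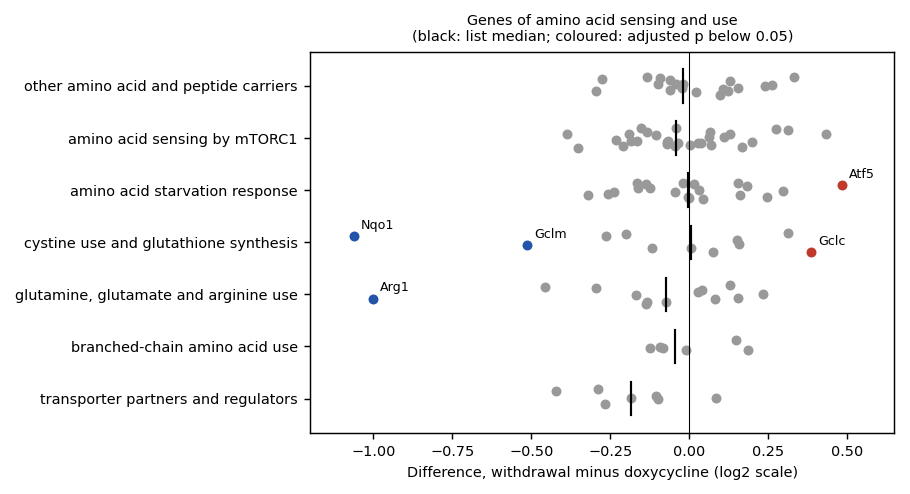
Differences on the log2 scale (x axis) for the measured genes of 7 lists of amino acid sensing and use, 1 point per gene, with a black bar at the median of each list and colour for adjusted p below 0.05. Atf5 and Gclc are the coloured genes above 0, and Nqo1, Gclm and Arg1 those below.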

How the data were processed

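Total RNA was amplified as cDNA, labelled with biotin and hybridised to 6 mouse arrays, per the labels' protocols. The authors deposited 1 log2 value per probe set and array, made with RMA per the submitters' processing notes. Its version is not given in the sources used here. RMA equalises the distributions of the arrays and compresses differences near the floor.

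Of 45101 rows, 64 control probe sets were left out. Of the other 45037, 34945 carry 1 symbol in the platform annotation. The 2 groups were compared with limma 3.58.1 (lmFit, eBayes; R 4.3.3), without covariates, on 4 residual and 3.54 prior degrees of freedom. Two-sided p-values were adjusted by the Benjamini-Hochberg method, taken over all 45037 in the main fit. The fit on averaged probe sets was adjusted over the 18193 genes. That above the median level was adjusted over the probe sets kept. On simulated data 86% of 100 probe sets changed by 1 and 52% of 100 changed by 0.5 were recovered among 45037, and 2 of 140 calls were false. The changed probe sets were all above the median level, with noise independent between arrays, so these shares do not describe dimmer genes. The number of arrays limits the precision.

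Array values are given for the members that passed, the 10 brightest, Slc3a1, Slc3a2 and at most 6 others, chosen by the size of a difference that missed the threshold, and for Slc7a11, Slc36a1 and Slc38a5, added after their values were seen. The members and lists were chosen with earlier results of these data known. Promoter windows and gene order came from RefSeq tables of GRCm38.p6, and motifs were matched exactly on both strands. Alternatives left out each replicate, used the replicate number as a block, tested only the brighter probe sets, centred or quantile-normalized the arrays again, used trend and robust options or array weights, or averaged a gene's probe sets. A fit without 2 arrays was added after seeing the data. Permutation tests used scipy 1.17.1 and figures matplotlib 3.10.9 (Python 3.11.15). The deviations of same-numbered replicates correlated at -0.304, 0.460 and -0.033. With 3 arrays per group these values cannot settle whether the replicates are paired. They share only a number and were not treated as pairs in the main fit.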

Additional observations from a re-analysis of the deposited data

How the results depend on the processing

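Counts are given as rises and falls among the 63 genes, then among all 18193, beside 3 and 3 and 218 and 286. With 1 array left out they were 0 to 2 and 1, and 57 to 152 and 94 to 182. With the replicate block, which shares only a number, they were 0 and 1, and 63 and 107. Without the 2 arrays that stood apart, an alternative chosen after seeing the data, they were 0 and 1, and 22 and 55. In all of these fits the fall among the 63 genes was that of Slc6a20a. These fits have fewer arrays or degrees of freedom. Testing only probe sets above the median level gave 5 and 2, and 498 and 580. That fit read 35 of the 63 genes and 11143 of all, and could not test Slc6a20a, whose mean lay below that level. With trend and robust options they were 6 and 3, and 634 and 732, and with array weights 5 and 3, and 417 and 489. Averaging the probe sets of a gene, they were 4 and 2, and 332 and 375. Centring on medians and repeated quantile normalization kept the same 6 genes. The fits above the median level and on averages adjusted over fewer p-values, and the cause of the larger counts was not tested. None of the 6 genes that passed among the 63 changed sign under the alternatives that tested it.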
